A study of Mus musculus with 8 samples.

Results

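The RNAs described here are 8 long noncoding RNAs of naive mouse CD8+ T cells: Malat1, Neat1, Kcnq1ot1, Gas5, Snhg1, Snhg3, Snhg8 and Snhg12. They were picked by gene symbol, 8 rows of the 41730 in the count table. The choice was made with their levels, their spread between libraries and their difference between the groups already in view, so those values are given as a description. The question asked of them was whether other noncoding RNAs share the spread of Malat1 between libraries. All 8 passed the filter on low counts, which kept 10037 genes.

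The cells were isolated as untouched naive CD8+ T cells with a magnetic kit and kept in culture for 24 h. RGX-104, at 2 µM, activates the liver X receptors (LXR), nuclear receptors that sense sterols, and DMSO was the solvent control. The groups were RGX-104 (4 libraries, replicates 5 to 8) and DMSO (4 libraries, replicates 1 to 4), and no genetic change is named for either. The sources used here give neither the strain, the age nor the number of mice, nor whether libraries came from separate animals or cultures. P-values therefore rest on a spread between libraries that may be technical. RNA was read with QuantSeq, a 3′ end method that starts from poly(A), and a level is given in CPM, counts scaled by TMM to a common library total, with no length correction.

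Long noncoding RNAs act as RNA and are not translated into a known protein, and many stay in the nucleus. Malat1 lies at nuclear speckles, the stores of splicing factors, and is among the most abundant nuclear RNAs of mammalian cells. Neat1 builds paraspeckles, nuclear bodies that hold RNA-binding proteins such as SFPQ and NONO. Kcnq1ot1 is an imprinted antisense RNA, made from the paternal allele within the Kcnq1 gene, that silences neighbouring genes on the same chromosome. Gas5 and the Snhg genes carry small nucleolar RNAs (snoRNAs) in their introns. These guide chemical modification or processing of ribosomal RNA, while the spliced host RNA is exported and, in Gas5, degraded during translation by nonsense-mediated decay.

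What a poly(A)-primed library can read depends on how an RNA ends. The last 60 bases are therefore shown for Malat1, both forms of Neat1, Kcnq1ot1 and Gas5 (GENCODE M21 transcripts paired with a RefSeq RNA, GRCm38, given 5′ to 3′). Capitals mark each polyadenylation signal, AATAAA or ATTAAA, that lay within the last 40 bases.
Malat1, chr19:5795690-5795749, minus strand: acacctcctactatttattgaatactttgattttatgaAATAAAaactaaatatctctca
Neat1 long form, chr19:5824708-5824767, minus strand: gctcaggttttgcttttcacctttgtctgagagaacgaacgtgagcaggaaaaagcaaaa
Neat1 short form, chr19:5842307-5842366, minus strand: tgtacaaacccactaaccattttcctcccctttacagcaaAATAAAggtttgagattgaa
Kcnq1ot1, chr7:143203458-143203517, minus strand: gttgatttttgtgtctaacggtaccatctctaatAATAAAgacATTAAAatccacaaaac
Gas5, chr1:161038480-161038539, plus strand: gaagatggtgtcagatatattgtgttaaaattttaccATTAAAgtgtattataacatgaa
These signals ended 11 to 21 bases before the end of the RNA in the transcripts shown and in those of Snhg1, Snhg3, Snhg8 and Snhg12. Kcnq1ot1 and Snhg8 held 2 of them each. The exception was the long form of Neat1, which held none there. The mature ends of Malat1 and of long Neat1 are cut by RNase P, the enzyme that trims transfer RNAs, and are protected by a triple helix in place of a poly(A) tail.

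Tracts of A inside an RNA can also take up an oligo(dT) primer. Among the transcripts of the 8 genes paired with a RefSeq RNA, those of Malat1 and Kcnq1ot1 had runs of 10 or more. Other transcripts of these genes are not reported here. For all 55341 annotated genes the longest transcript was taken instead, and such runs occurred in 9.74%. Malat1 had 1, of 12 bases, 298 bases before its annotated end. Kcnq1ot1 had 10 in a transcript of 93092 bases, the longest of 41. Capitals mark these 2 runs, with 30 bases on either side.
Malat1, chr19:5795958-5796029, minus strand: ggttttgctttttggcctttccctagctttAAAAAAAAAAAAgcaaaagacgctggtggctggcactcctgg
Kcnq1ot1, chr7:143226915-143227015, minus strand: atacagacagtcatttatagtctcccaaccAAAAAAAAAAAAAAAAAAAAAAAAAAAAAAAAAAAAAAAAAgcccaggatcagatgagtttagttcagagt
The letters AAAAAGCAAAA at the end of long Neat1 are also found in Malat1, across the end of its run of A, and at 11 bases are the longest such match. The counts are sums per gene, so the position at which reads of either RNA began was not analysed here.

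The libraries held 16196217 to 28287445 counts in RGX-104 and 16308726 to 24353797 in DMSO. Genes with any count numbered 10442, 10748, 10803 and 10990 in RGX-104 replicates 5 to 8, against 10047, 9772, 10194 and 10908 in DMSO replicates 1 to 4. DMSO replicates 1 to 3 therefore had fewer genes than any other library. The 8 markers of CD8+ T cells summed to 3537 to 3888 CPM in RGX-104 and 3468 to 3817 CPM in DMSO, with Cd2 at 0 in every library. Among marker lists of other cell types, the largest sums were those of 5 B cell genes (81.6 to 111.3 CPM in RGX-104, 29.0 to 129.6 CPM in DMSO) and 5 stromal genes (65.4 to 117.2 CPM in RGX-104, 64.6 to 124.9 CPM in DMSO). The stromal list held Col1a1, Col1a2, Col3a1, Pecam1 and Pdgfra, the last at 0 in every library. A sum does not show which of its genes was counted.

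Malat1 (chr19:5795690-5802672, minus strand, GRCm38.p6) had 10233, 10501, 11699 and 12713 CPM in RGX-104 replicates 5 to 8, against 17194, 13198, 16191 and 9821 CPM in DMSO replicates 1 to 4. DMSO replicates 1, 2 and 3 lay above every RGX-104 library, and DMSO replicate 4 lay below all of them. Its share of all counts was 1.02% to 1.27% in RGX-104 and 0.956% to 1.70% in DMSO. By mean count it had rank 5 among the genes tested, with Rps27, Actb and Rps21 just above it. The mean was 11287 ± 1145 CPM in RGX-104 and 14101 ± 3320 CPM in DMSO (SD, n = 4 each). The log2 fold change was -0.32 ± 0.12 (SE), which did not pass (edgeR quasi-likelihood test, adjusted p = 0.9996). In a bulk sample, fewer cells rich in an RNA and less of that RNA per cell cannot be told apart.

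Kcnq1ot1 (chr7:143213111-143296547, minus strand) had the same layout at a lower level. It had 194.8, 199.2, 215.3 and 221.3 CPM in RGX-104 replicates 5 to 8, against 366.6, 333.4, 309.8 and 181.1 CPM in DMSO replicates 1 to 4. Again DMSO replicates 1 to 3 lay above, and DMSO replicate 4 below, the whole RGX-104 group. The mean was 207.6 ± 12.7 CPM in RGX-104 and 297.7 ± 81.2 CPM in DMSO (SD, n = 4 each). The log2 fold change of -0.52 ± 0.19 was the most negative of the 8 (adjusted p = 0.9996, edgeR). Kcnq1, the potassium channel gene on the opposite strand, had no count in any library, which allows up to 3 counts in each. The GENCODE transcript runs on to base 143203458, beyond the RefSeq gene.

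Neat1 (chr19:5824708-5845480, minus strand), the neighbour of Malat1 on chromosome 19, had 362.4, 435.8, 382.9 and 350.5 CPM in RGX-104 replicates 5 to 8, against 464.6, 450.7, 513.9 and 400.6 CPM in DMSO replicates 1 to 4. DMSO replicates 1 to 3 were above every RGX-104 library here too, but DMSO replicate 4 fell within the RGX-104 range. The mean was 382.9 ± 37.7 CPM in RGX-104 and 457.4 ± 46.6 CPM in DMSO, a log2 fold change of -0.26 ± 0.13 (adjusted p = 0.9996, edgeR). Short and long Neat1 share their 5′ part and are counted in 1 row, so their ratio was not analysed here.

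**Figure D1:**
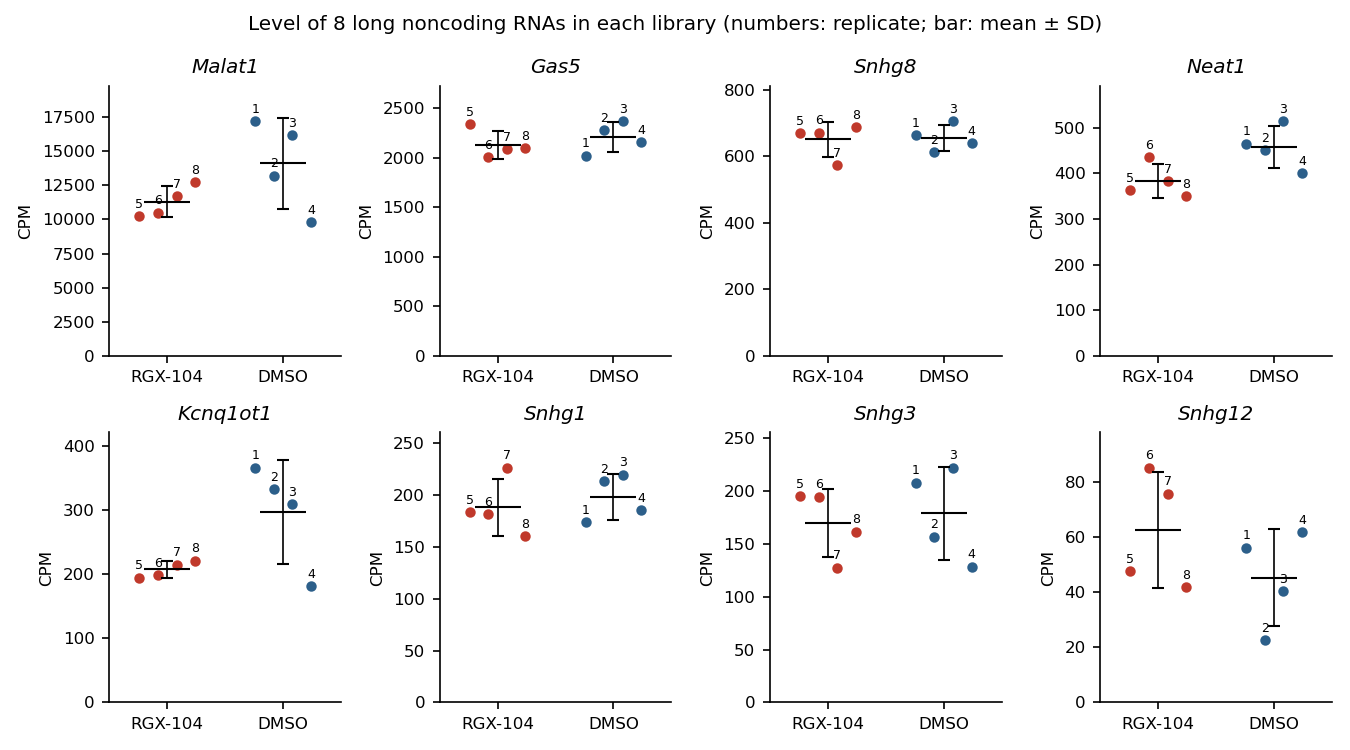
Level of the 8 long noncoding RNAs in each library in CPM (vertical axes start at 0), for RGX-104 (red, replicates 5 to 8) and DMSO (blue, replicates 1 to 4), with the mean and SD of each group as bars. In Malat1, Kcnq1ot1 and Neat1, DMSO replicates 1 to 3 lie above all RGX-104 libraries and DMSO replicate 4 does not. In the 5 snoRNA host genes the groups lie over each other.

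The snoRNA host genes did not share this layout. Gas5 (chr1:161034601-161038539, plus strand), named for its rise in growth-arrested cells, had 2336, 2009, 2083 and 2095 CPM in RGX-104 replicates 5 to 8, against 2021, 2279, 2368 and 2157 CPM in DMSO replicates 1 to 4. The highest and the lowest library differed by a factor of 1.18, the smallest range of the 8 RNAs. The groups overlapped, with means of 2131 ± 142 CPM in RGX-104 and 2207 ± 151 CPM in DMSO and a log2 fold change of -0.05 ± 0.08.

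Snhg8 (chr3:123507552-123508336, minus strand), which hosts an H/ACA snoRNA, had 669.7, 670.1, 573.3 and 686.8 CPM in RGX-104 replicates 5 to 8, against 662.4, 611.0, 704.8 and 639.8 CPM in DMSO replicates 1 to 4. RGX-104 replicate 7 was the lowest of the 8 libraries. Its log2 fold change was -0.01 ± 0.11, and its direction was the opposite with plain library totals.

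Snhg1 (chr19:8723487-8726326, plus strand), a host of C/D box snoRNAs, had 183.1, 181.7, 226.2 and 160.5 CPM in RGX-104 replicates 5 to 8, against 173.9, 213.1, 219.5 and 185.2 CPM in DMSO replicates 1 to 4. Both the highest and the lowest library were RGX-104. Its log2 fold change was -0.08 ± 0.17.

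Snhg3 (chr4:132351933-132353686, minus strand), which hosts snoRNAs needed to process ribosomal RNA, had 195.6, 195.0, 127.5 and 161.8 CPM in RGX-104 replicates 5 to 8, against 208.0, 157.1, 222.3 and 128.6 CPM in DMSO replicates 1 to 4. The libraries differed by a factor of 1.74, nearly as much as those of Malat1 (1.75), but DMSO replicate 2 and RGX-104 replicates 5 and 6 stood in another order. Its log2 fold change was -0.07 ± 0.20. Rcc1 overlaps Snhg3 on the same strand and had 52.9 ± 9.87 CPM in RGX-104 and 36.4 ± 32.7 CPM in DMSO, so reads of the 2 genes may have been split or dropped.

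Snhg12 (chr4:132308678-132311024, plus strand) had the lowest count of the 8, with 47.7, 85.1, 75.6 and 41.9 CPM in RGX-104 replicates 5 to 8, against 56.1, 22.5, 40.3 and 61.8 CPM in DMSO replicates 1 to 4. It was the only 1 of the 8 with a positive log2 fold change (0.47 ± 0.36), and the groups overlapped. Its libraries differed by a factor of 3.78.

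The snoRNAs themselves were at low counts in these poly(A)-primed libraries. The 8 snoRNAs annotated within Gas5 summed to 4.63 to 30.5 CPM per library and the 8 within Snhg1 to 48.2 to 89.3 CPM. The 2 within Snhg3 summed to 45.1 to 70.8 CPM, the 4 within Snhg12 to 9.76 to 25.8 CPM, and the 1 within Snhg8 had no count. Mature snoRNAs have no poly(A) tail, so these counts do not measure their level.

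In the comparison of RGX-104 with DMSO, 0 of the 8 RNAs passed an adjusted p of 0.05 (edgeR), beside 0.110% of all genes tested. At the unadjusted threshold there were 2, Malat1 and Kcnq1ot1, beside 3.81% of all genes. Both were lower in RGX-104, as were 1.82% of all genes at that threshold. DESeq2 and limma-voom also called 0 of the 8, beside 31 and 14 of all 10037 genes tested. With no filter on low counts edgeR called 1, Malat1 (adjusted p = 0.0142), beside 15 of all 14589 genes in that fit. The log2 fold change was below 0 for 7 of the 8, beside 49.1% of all genes. Their median was -0.075, against 0.0090 over all genes tested. In 0 of the 8 did the RGX-104 libraries all lie below the DMSO libraries (1.49% of all genes), and in 0 did the groups stand apart in either direction (3.58%). As the choice of RNAs had used this comparison, nothing is read from these counts.

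The comparison turned on DMSO replicate 4, singled out after it was seen to be the lowest library for Malat1 and Kcnq1ot1. Leaving out the lowest DMSO library raises the DMSO mean and narrows its spread, so the p-values without it are a description. Without DMSO replicate 4, the log2 fold change of Malat1 was -0.47 (adjusted p = 0.0218, edgeR) and that of Kcnq1ot1 -0.70 (adjusted p = 0.119). That fit called 14 of 10381 genes. Set against DMSO replicate 4 alone, an alternative chosen after seeing the data, the RGX-104 libraries gave log2 fold changes of 0.21 for Malat1 and 0.20 for Kcnq1ot1, in the opposite direction. That library lay below every RGX-104 library for both RNAs, so this direction was fixed by its choice. The sole DMSO library is assumed in that fit to vary like the RGX-104 libraries. When genes detected entered the fit as a covariate, the values were -0.14 for Malat1 and -0.13 for Kcnq1ot1.

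**Figure D2:**
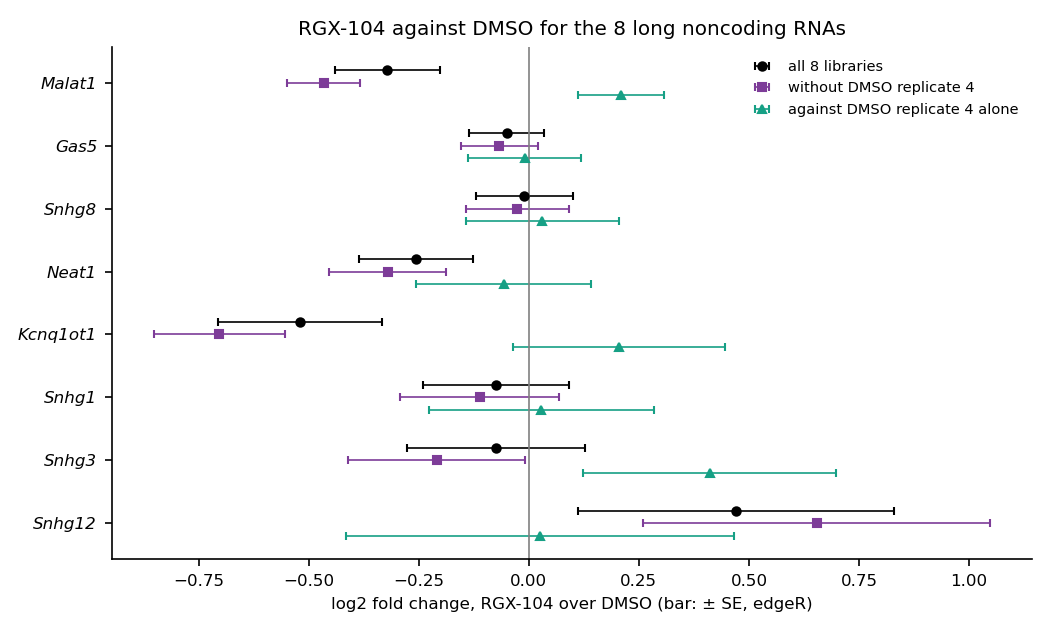
Log2 fold change of each RNA, RGX-104 over DMSO (horizontal axis, bars ± SE from edgeR), with all 8 libraries (black), without DMSO replicate 4 (purple) and against DMSO replicate 4 alone (green). Malat1 and Kcnq1ot1 lie below 0 with all libraries and without DMSO replicate 4, and above 0 against that library alone. DMSO replicate 4 was singled out as their lowest library, so the sign against it was fixed by that choice.

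Spread was measured as the SD of log2(CPM + 0.5) within groups, and it depends strongly on the level. For Malat1 it was 0.28, with 0.14 among the RGX-104 libraries and 0.36 among the DMSO libraries. Tested genes within a factor of 2 of its level, 7 including Malat1, had a median of 0.09, and Malat1 was the highest of them. Without DMSO replicate 4 the spread of Malat1 was 0.17. Of 102 genes with a mean of at least 1000 CPM, 2900060B14Rik, chosen after its values were seen, was the other one with a spread as large (0.35). It averaged 4157 CPM in RGX-104 and 4728 CPM in DMSO.

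Among genes of their own level, the other RNAs had less unusual spreads within groups. The SD over all 8 libraries, which includes the difference between groups, gave another order. Malat1 (0.30) was then at or above 85.7% of its 7 genes and Kcnq1ot1 (0.39) at or above 92.3% of 1196. The remaining RNAs lay from 5.97% (Snhg8) to 69.6% (Snhg12). Within groups, the spread of Kcnq1ot1 was 0.33, at or above 81.1% of 1196 genes of like level. It was 0.09 among the RGX-104 libraries and 0.46 among the DMSO libraries, where DMSO replicate 4 stood apart, and without that library the spread within groups was 0.10. Neat1 (0.14) was at or above 21.1% of its 669 level-matched genes, Gas5 (0.10) 23.3% of 73, Snhg8 (0.10, or 0.069 without RGX-104 replicate 7) 12.2% of 352 and Snhg1 (0.18) 16.6% of 1593. Snhg3 (0.33) and Snhg12 (0.58) were at or above 66.9% of 1734 and 67.1% of 3642 genes. As the spread helped to choose these RNAs, it was not tested.

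**Figure D3:**
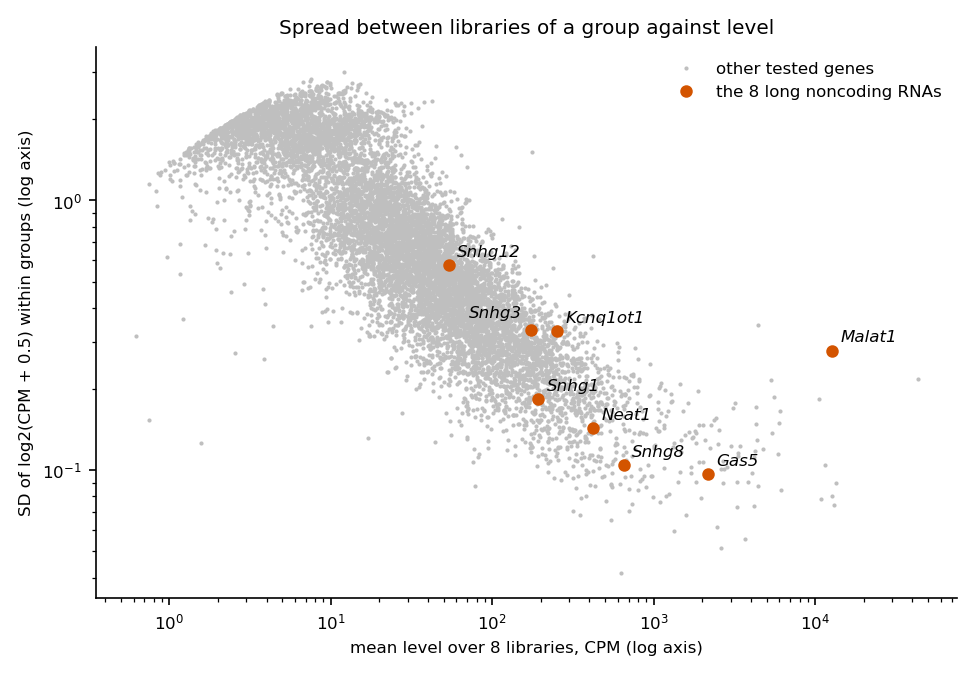
SD of log2(CPM + 0.5) within groups (vertical log axis) against the mean level over the 8 libraries in CPM (horizontal log axis) for all 10037 genes tested (grey) and the 8 long noncoding RNAs (orange). Spread falls with level, and Malat1, at 0.28, lies above the genes of like level, while Gas5, Snhg8, Neat1 and Snhg1 lie in the lower part of the cloud at their levels.

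Whether the other RNAs followed Malat1 was asked library by library, on log2(CPM + 0.5), in 7 relations over 8 libraries. Kcnq1ot1 came closest. In the 4 RGX-104 libraries and DMSO replicate 4 the 2 RNAs stood in the same order, DMSO replicate 4 lowest, then RGX-104 replicates 5, 6, 7 and 8. In DMSO replicates 1 to 3, which had more of both, the order differed: Malat1 was lowest in replicate 2 and Kcnq1ot1 in replicate 3. Kcnq1ot1 levels fell into separate sets, 3 libraries at 309.8 to 366.6 CPM and 5 at 181.1 to 221.3 CPM. Over all 8 libraries Pearson's r was 0.918 (two-sided exact permutation p = 0.000843, adjusted p = 0.0059 over 7 relations) and Spearman's rho was 0.976 (exact permutation p = 0.000397, adjusted p = 0.00278). Without DMSO replicates 1 and 3, the libraries farthest from the Malat1 median, r was 0.841. Centred on the group means it was 0.891. This is a description without p, as centred values of groups with unlike spread cannot be swapped freely between libraries. The p-values of the 7 relations assume such swapping over all 8 libraries, and the RNAs were chosen with their levels in view. These p-values are therefore a description too. The pooled r spans both sets, and neither set holds the 6 libraries needed for a correlation within it. Of 3549 other genes with a mean of at least 50 CPM, Kcnq1ot1 had rank 5, where the median r was -0.043 and the middle 50% of genes lay between -0.360 and 0.287.

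Neat1 had Pearson's r = 0.651 with Malat1 over the 8 libraries (two-sided exact permutation p = 0.0857, adjusted p = 0.300 over 7 relations). Spearman's rho was 0.619 (exact permutation p = 0.115, adjusted p = 0.378). Without DMSO replicates 1 and 3, r was 0.0772, so the relation rested on them. Among RGX-104 libraries the order was not shared, since replicate 8 was the highest for Malat1 and the lowest for Neat1.

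The snoRNA host genes gave r = 0.523 for Snhg3, 0.260 for Snhg8, 0.126 for Snhg1, 0.0515 for Gas5 and -0.372 for Snhg12, with exact permutation p-values of 0.184 to 0.899 and adjusted values of 0.430 to 0.899. Their rho lay between -0.5 and 0.5 (exact permutation p = 0.216 to 1, adjusted p = 0.378 to 1). For Snhg3 r was -0.116 without DMSO replicates 1 and 3. None of these 5 relations passed, which does not show that they are absent, as 8 libraries are few.

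**Figure D4:**
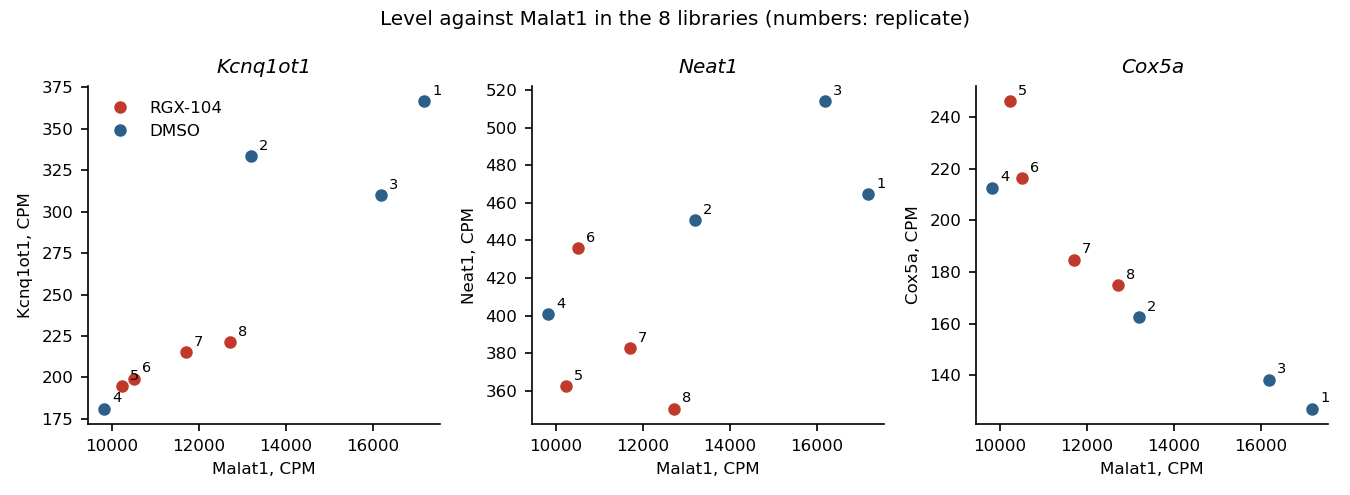
Level of Kcnq1ot1 (left), Neat1 (middle) and Cox5a (right) against the level of Malat1, all in CPM, in RGX-104 (red) and DMSO (blue) libraries, with replicate numbers beside the points. Kcnq1ot1 is at 309.8 to 366.6 CPM in DMSO replicates 1 to 3 and at 181.1 to 221.3 CPM in the other 5 libraries, while Cox5a, a gene of respiratory complex IV, is lower where Malat1 is higher.

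The number of genes detected was lowest in the 3 libraries in which Malat1, Kcnq1ot1 and Neat1 were highest. The relations of these 3 RNAs with genes detected and total counts were added after the data were seen. Their p-values are therefore a description. The r of genes detected was -0.853 with Kcnq1ot1 (exact permutation p = 0.0119, adjusted p = 0.0716 over 6 relations), -0.623 with Malat1 (p = 0.105, adjusted p = 0.211) and -0.674 with Neat1 (p = 0.0727, adjusted p = 0.211). Spearman's coefficient was -0.643 for Kcnq1ot1 (exact permutation p = 0.0962, adjusted p = 0.265), -0.595 for Malat1 (p = 0.132, adjusted p = 0.265) and -0.738 for Neat1 (p = 0.0458, adjusted p = 0.265). Without the libraries farthest from the median number of genes, r was -0.659 for Kcnq1ot1, -0.523 for Malat1 and -0.650 for Neat1. Total counts had r = 0.0145 with Kcnq1ot1 (exact permutation p = 0.972), 0.0125 with Malat1 (p = 0.979) and 0.165 with Neat1 (p = 0.694). With a linear term in genes detected taken out of both RNAs, a step chosen after seeing the data, the r of Kcnq1ot1 with Malat1 was 0.946.

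Among all genes with at least 50 CPM, the 4 that followed Malat1 more closely than Kcnq1ot1 code for proteins. They were Pnisr, which encodes an arginine- and serine-rich protein of nuclear speckles (r = 0.958), Scaf11, a splicing factor (0.933), Dcun1d1, which helps attach NEDD8 to cullins (0.931), and Nsd3, a histone H3 lysine methyltransferase (0.924). Pnisr had 306.4, 328.1, 351.6 and 337.4 CPM in RGX-104 replicates 5 to 8, against 414.8, 376.5, 399.4 and 295.6 CPM in DMSO replicates 1 to 4. As in Malat1, DMSO replicate 4 was the lowest library and DMSO replicate 1 the highest.

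The 3 genes that ran most against Malat1 were nuclear genes of the mitochondrial respiratory chain. Cox5a, a subunit of complex IV, had r = -0.970, Cox4i1, another complex IV subunit, had -0.960, and Ndufa11, a complex I subunit, had -0.954. Cox5a had 246.0, 216.4, 184.8 and 174.9 CPM in RGX-104 replicates 5 to 8, against 127.1, 162.6, 138.4 and 212.6 CPM in DMSO replicates 1 to 4. Its order within the RGX-104 group was the reverse of that of Malat1. These genes were the extremes of 3549, and no p is given for them.

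**Figure D5:**
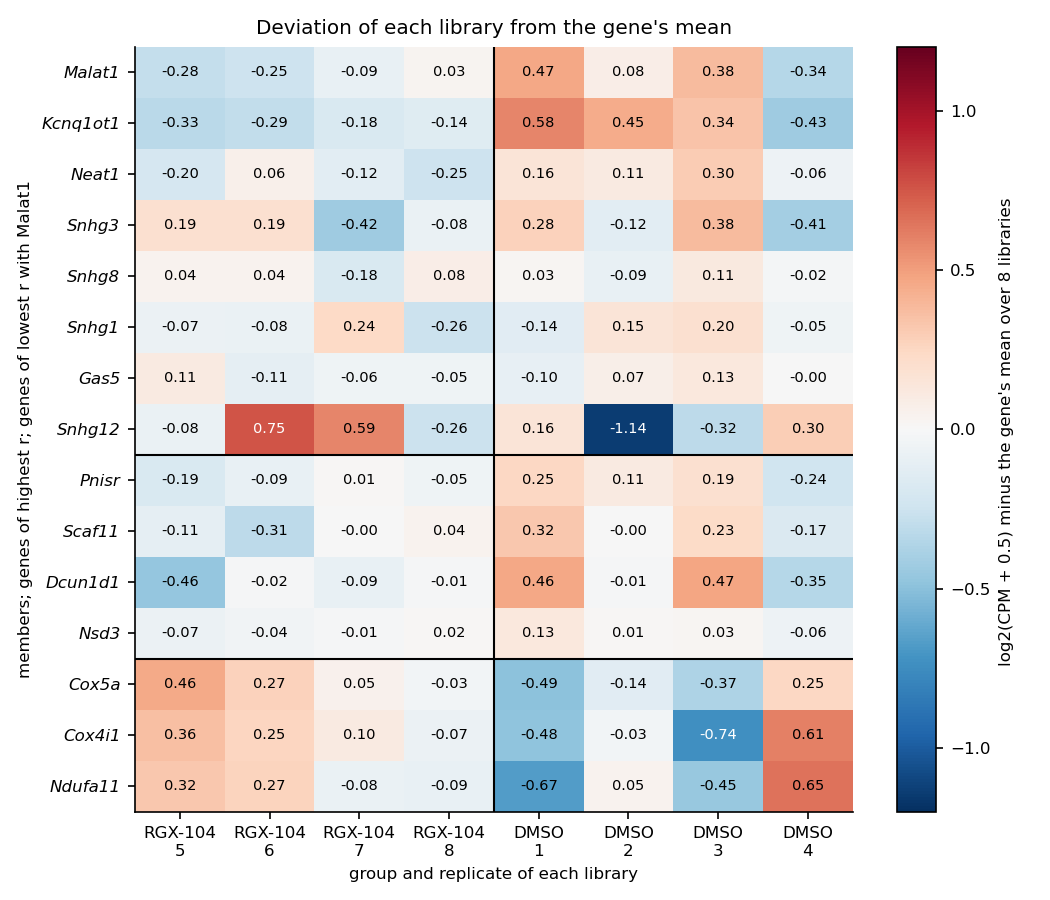
Deviation of each library from the gene's mean over the 8 libraries on log2(CPM + 0.5), with RGX-104 replicates 5 to 8 left and DMSO replicates 1 to 4 right, for the 8 long noncoding RNAs (top block), the 4 other genes of highest r with Malat1 (middle) and the 3 of lowest r (bottom). Malat1, Kcnq1ot1 and Pnisr are above their mean in DMSO replicates 1 to 3 and below it in DMSO replicate 4, and Cox5a has the opposite signs there.

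Protein-coding genes next to Malat1 in level did not share its layout. Rps27, a ribosomal protein gene, had 13308 ± 773 CPM in RGX-104 and 13787 ± 931 CPM in DMSO, and its r with Malat1 was -0.429. Actb, cytoplasmic actin, had 13399 ± 510 CPM in RGX-104 and 12812 ± 816 CPM in DMSO (r = -0.779). Below Malat1 stood Rps29, Rplp1 and then mt-Rnr1, the small mitochondrial ribosomal RNA, with 7263 ± 956 CPM in RGX-104 and 13724 ± 1684 CPM in DMSO, which fell by 0.92 on the log2 scale (SE 0.09, adjusted p = 1.1e-05, edgeR). The DMSO libraries all lay above the RGX-104 libraries for mt-Rnr1, DMSO replicate 4 included at 12160 CPM. In part its layout was like that of Malat1, with r = 0.602. RGX-104 replicates 5 to 8 stood in the same order, and DMSO replicate 4 was the lowest DMSO library but for Malat1 lay below RGX-104 too. Of the other neighbours, Rps21 had r = -0.616, Rps29 -0.592 and Rplp1 0.224.

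Genes around these RNAs in their pathways were listed with earlier results known, and 0 members of these lists passed apart from mt-Rnr1 (edgeR, adjusted p under 0.05). Of 16 other noncoding snoRNA hosts 12 were tested, with a median log2 fold change of -0.07 and 6 above 0. Zfas1, a host of C/D box snoRNAs, had 616.9 ± 63.0 CPM in RGX-104 and 722.2 ± 136.8 CPM in DMSO. All 26 protein-coding snoRNA hosts were tested, with a median log2 fold change of 0.01, and 7 of them had a positive r with Malat1 (median r -0.489). The lowest was Rpsa, a ribosomal protein gene, at -0.949. Ncl, which encodes nucleolin, was the highest at 0.827. The 13 snoRNP protein genes tested, of 14 listed, had a median log2 fold change of -0.19.

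Of 23 other nuclear or regulatory noncoding RNAs 14 were tested, with a median log2 fold change of 0.08 and a median r of -0.176. Xist, the RNA that coats the inactive X chromosome, had 506.7 ± 80.4 CPM in RGX-104 and 522.2 ± 35.9 CPM in DMSO (r = -0.371). The 4 tested neighbours of Malat1 and Neat1, of 7 listed, had a median log2 fold change of 0.03. Frmd8 had 390.3 ± 59.3 CPM in RGX-104 and 356.9 ± 36.1 CPM in DMSO (r = -0.171).

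The 13 paraspeckle protein genes had a median log2 fold change of 0.07. Sfpq had 347.1 ± 34.0 CPM in RGX-104 and 385.3 ± 54.5 CPM in DMSO, while Hnrnph3 had 149.8 ± 18.8 CPM in RGX-104 and 217.1 ± 21.03 CPM in DMSO (unadjusted p = 0.0044, edgeR). Of 19 nuclear speckle and splicing genes 17 were tested, with a median log2 fold change of -0.06 and a median r with Malat1 of 0.234, between -0.875 for Srsf5 and 0.933 for Scaf11. Srrm2, a scaffold of nuclear speckles, had 1610 ± 124 CPM in RGX-104 and 1684 ± 181 CPM in DMSO.

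Nonsense-mediated decay, which degrades spliced Gas5, was covered by 13 tested genes of 14, with 10 log2 fold changes above 0 and a median of 0.20. Upf2, a core factor, had 232.5 ± 36.0 CPM in RGX-104 and 182.7 ± 21.5 CPM in DMSO (unadjusted p = 0.0497, edgeR). The 15 tested genes of the nuclear exosome and of 3′ end processing, of 16 listed, had a median log2 fold change of 0.08. Pabpn1, the nuclear poly(A)-binding protein, had 378.9 ± 34.3 CPM in RGX-104 and 377.8 ± 63.1 CPM in DMSO.

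Promoter letters were set beside these levels because Malat1 and Kcnq1ot1 had like orders of libraries. RefSeq windows of 300 bases (GRCm38.p6, 250 before the start to 50 after it) were found for 7 of the 8 RNAs, Gas5 with 2 windows, but not for Neat1. The 150 bases around the start are shown, 100 before it and 50 after it, with capitals for the letters TGACGT on either strand (read as ACGTCA on the other), the core of a cyclic AMP response element.
Malat1, chr19:5802623-5802772, minus strand: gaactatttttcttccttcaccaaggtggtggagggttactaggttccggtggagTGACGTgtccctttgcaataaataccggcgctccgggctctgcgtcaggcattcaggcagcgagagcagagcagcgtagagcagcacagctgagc
Kcnq1ot1, chr7:143296498-143296647, minus strand: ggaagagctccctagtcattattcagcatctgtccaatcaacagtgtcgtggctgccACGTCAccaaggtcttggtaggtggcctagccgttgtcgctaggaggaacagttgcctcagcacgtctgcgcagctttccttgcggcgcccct
The letters TGACGT began 45 bases before the start in Malat1, with a further match 155 before it, and 43 before the start in Kcnq1ot1. They were also in 1 of the 2 Gas5 windows, whose levels did not follow Malat1, and in 7.51% of all 32851 promoter windows. CCAAT was in the windows of Kcnq1ot1, Snhg3 and Snhg8 (37.4% of all windows) and TATAAA in those of Snhg1, Snhg3 and Snhg8 (13.6%), each on either strand. GGGCGG was in those of Gas5, Snhg1 and Snhg8 (35.7%). The perfect DR4 repeat (AGGTCA, any 4 bases, AGGTCA), a form of the element bound by LXR with its partner RXR, was in none of them and in 0.0152% of all windows. A match of letters is a description and not evidence of binding.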

How the data were processed

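Per the file headers and the values, the authors deposited whole-number counts per gene symbol, 1 column per library, not normalized. The submitters' processing notes name STAR 2.7.8a, R 4.1.0, DESeq2 1.4 and GRCm38. The sources used here do not name the counting tool, annotation, strand setting or molecular identifiers, so reads of a gene and one overlapping it may be mixed.

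The test was that of edgeR 4.0.16 under R 4.3.3: TMM scaling, filterByExpr with a minimum count of 10 (10037 of 41730 genes kept), quasi-likelihood test with the group as the only term, and Benjamini-Hochberg adjustment over all genes tested (threshold 0.05). SE is the log2 fold change over the square root of F. The procedure was tested on simulated data. DESeq2 1.42.0 and limma-voom 3.58.1 were alternatives. Levels are CPM. Correlations used log2(CPM + 0.5) and exact permutation of 40320 pairings (scipy 1.17.1), two-sided. Total counts per library, 16196217 to 28287445, set the counting error.

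The RNAs and gene lists were chosen with earlier results of these data known. Named genes were the 8 RNAs, up to 4 genes of highest level per list and called ones, the 5 of highest and 3 of lowest r with Malat1, and its neighbours in level. List genes singled out for r or unadjusted p (Rpsa, Ncl, Srsf5, Hnrnph3, Upf2) were chosen after their values were seen. Some listed genes are counted but not reported here. Coordinates are 1-based.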

Additional observations from a re-analysis of the deposited data

Results flagged for a closer look

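Of 116 groups of 4 libraries examined, 4 held a library far from the other 3. The groups were those of RGX-104 and of DMSO for the 8 RNAs and the list genes given with values. Also examined were the genes of highest and lowest r with Malat1 and its neighbours in level. Dixon's criterion used here marks about 1 group in 20 by chance, which comes to 6 of 116. Snhg8 had 573.3 CPM in RGX-104 replicate 7, against 669.7 to 686.8 CPM in the other RGX-104 libraries. In the same library Hnrnph3 had 121.9 CPM, against 155.8 to 162.4 CPM. Lncpint, a p53-induced noncoding RNA, stood at 10.9 CPM in DMSO replicate 4, while the other DMSO libraries had 28.3 to 31.5 CPM. Nop58, a core protein of C/D box snoRNPs, stood at 290.1 CPM in DMSO replicate 1, while the others had 318.8 to 319.9 CPM. Neither Malat1 nor Kcnq1ot1 in DMSO replicate 4 met the criterion.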

How the results depend on the processing

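No paired analysis was possible because each library carries its own number, 1 to 8, and no label ties RGX-104 libraries to DMSO libraries. The count of genes called was 11. It was 31 with DESeq2, 7 with genes detected as a covariate, and 8 to 14 over the fits that leave out 1 library. Of 136 alternative log2 fold changes, 122 kept their direction and side of the threshold. Malat1 passed in 2: with no filter (-0.32, adjusted p = 0.0142) and without DMSO replicate 4 (-0.47, adjusted p = 0.0218). Leaving out 1 library gave -0.47 to -0.22 for Malat1, -0.70 to -0.41 for Kcnq1ot1, -0.33 to -0.20 for Neat1, -0.21 to 0.044 for Snhg3 and -0.047 to 0.044 for Snhg8. Directions turned for Snhg8 with plain library totals (0.0057), for Snhg3 with genes detected as a covariate (0.17) and, against DMSO replicate 4 alone, for Malat1 (0.21), Kcnq1ot1 (0.20), Snhg3 (0.41), Snhg1 (0.029) and Snhg8 (0.031). For Malat1 and Kcnq1ot1 the turn against DMSO replicate 4 follows from choosing their lowest library. Of 98 alternative correlations 91 kept direction and side. Only the relation with Kcnq1ot1 passed in any of them, so for the other RNAs keeping the side says little. The count includes the values centred on group means, for which no p is given. With genes detected taken out, r with Malat1 was -0.301 for Gas5, -0.131 for Snhg1 and 0.0586 for Snhg12, and centred on group means it was -0.120 for Gas5. Leaving out 1 library gave -0.329 to 0.451 for Gas5 and -0.134 to 0.444 for Snhg1. Of 96 alternative spreads within groups 93 stayed within their jackknife error and 1.5 times of the value given. Leaving out 1 library gave 0.17 to 0.30 for Malat1, 0.10 to 0.36 for Kcnq1ot1 (both lowest without DMSO replicate 4) and 0.069 to 0.11 for Snhg8 (lowest without RGX-104 replicate 7). All 96 alternative SDs over the 8 libraries stayed within those bounds. The jackknife error came from the same SDs with 1 library left out, so both counts say little about stability. The cause of these shifts was not tested. Snhg12 had the lowest counts of the 8.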

Other observations

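The other 21 pairs among Neat1, Kcnq1ot1 and the snoRNA hosts were compared over the 8 libraries, and none passed after adjustment (two-sided exact permutation, Benjamini-Hochberg over 21). This comparison was added after the data were seen, so its p-values are a description. The closest pair was Snhg3 and Snhg8, hosts on chromosomes 4 and 3, with r = 0.761 (exact permutation p = 0.0252, adjusted p = 0.528) and rho = 0.738 (p = 0.0458, adjusted p = 0.481). Its r was 0.605 without the 2 libraries farthest from the Snhg3 median. RGX-104 replicate 7 was low for both, with 127.5 CPM of Snhg3 and 573.3 CPM of Snhg8. Neat1 and Kcnq1ot1 had r = 0.712 (exact permutation p = 0.0601, adjusted p = 0.553) and rho = 0.571 (p = 0.151, adjusted p = 0.867), with r = 0.762 without the 2 libraries farthest from the Neat1 median. Gas5 and Snhg12 ran against each other, with r = -0.646 (exact permutation p = 0.0790, adjusted p = 0.553) and rho = -0.738 (p = 0.0458, adjusted p = 0.481), and r = -0.810 without the 2 libraries farthest from the Gas5 median. Snhg3 and Snhg12 are near each other on chromosome 4, on opposite strands, and had r = -0.121 (exact permutation p = 0.781, adjusted p = 0.861).

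In 2 further RNAs the row overlaps another gene. Zbtb37, which lies on the strand opposite Gas5, had 40.8, 44.8, 54.7 and 40.6 CPM in RGX-104 replicates 5 to 8, against 46.0, 9.76, 123.2 and 45.5 CPM in DMSO replicates 1 to 4. Rcc1, beside Snhg3, had 49.7, 50.7, 67.1 and 44.2 CPM in RGX-104 replicates 5 to 8, against 8.68, 8.89, 72.8 and 55.0 CPM in DMSO replicates 1 to 4. The DMSO libraries of both genes spread more widely than those of Gas5 or Snhg3.

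The gene 2900060B14Rik had the other wide spread above 1000 CPM and an r of 0.878 with Malat1.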
